A study of Drosophila melanogaster with 6 samples.

Results

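Heat shock and cytosolic chaperone genes were followed across 6 expression arrays of the larval proventriculus of Drosophila melanogaster. The list held 10 genes, chosen by symbol: 5 small heat shock proteins (Hsp22, Hsp23, Hsp26, Hsp27 and Hsp67Bc), the Hsp70 relatives Hsp68 and Hsc70-4, the Hsp90 gene Hsp83, the Hsp40 gene DnaJ-1, and their activator Hsf. Of these 10 genes, 6 had a probe set of their own in the array annotation (Hsp26, Hsp27, Hsp68, Hsc70-4, DnaJ-1 and Hsf), out of 11982 genes so named. Hsp22 was read only through probe sets annotated to both Hsp22 and CG4456, so its values are given for the pair. Hsp23, Hsp67Bc and Hsp83 had no probe set named in the annotation used and were not analysed here. The Hsp90 class is therefore represented only by its co-chaperones, and the class comparison sets small heat shock proteins against Hsp70 relatives.

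All larvae were at instar 3 and of the strain hairy-gal4 UAS-neoGFP, in which the hairy-gal4 driver directs the neoGFP transgene to cells where hairy is active. The groups were unchallenged larvae (2 arrays), larvae challenged with G418 (2 arrays), F3 unchallenged larvae without past exposure (1 array) and F3 unchallenged larvae whose F1 ancestors had past exposure (1 array), with no agent named in the labels of the F3 samples. G418 is an aminoglycoside antibiotic toxic to animal cells through their ribosomes, and neomycin resistance genes encode an enzyme that disarms it. The dose, the number of larvae per array and whether replicate arrays came from separate dissections are not given in the labels. The p-values therefore reflect spread among these arrays alone, and that spread may be technical. Values are log2 expression values made by the authors with RMA, a method that subtracts background, brings arrays to a shared distribution and combines several probes into 1 value per probe set. A difference of 1 on this scale is 2-fold.

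Chaperones bind unfolded proteins and help them fold, keep them from aggregating or pass them on for degradation. In flies, heat and other protein-damaging stress make the transcription factor Hsf form trimers that bind heat shock elements and switch on the Hsp70 copies, Hsp68 and the small heat shock proteins, while cognates such as Hsc70-4 are made in unstressed cells. Small heat shock proteins hold unfolded proteins without using ATP, and Hsp70 and Hsp90 proteins fold them in ATP-driven cycles with J-domain and other co-chaperones. Small heat shock genes of the cluster that holds Hsp22 to Hsp27 are also known to respond to ecdysone at the end of larval life, in the absence of heat.

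The tissue label was set against foregut and proventriculus genes. The transcription factor genes dve and fkh lay between 10.30 and 11.58 and between 8.44 and 10.16 over the 6 arrays, and hh between 7.59 and 9.34. The gene otp stayed between 4.22 and 4.49, near the array medians of 4.92 to 5.03. The 2 unchallenged arrays differed in genes of other tissues. On unchallenged replicate 2 the neuronal gene fne was at 9.69 and the glial gene repo at 7.42, whereas on the other 5 arrays they did not exceed 3.92 and 3.49. This array was also the highest of the 6 for most chaperone genes described here. The G418 differences of the listed genes, the Hsp22/CG4456 probe sets and the brighter shared Hsp70 probe sets are therefore also given without it. They are then G418 mean minus unchallenged replicate 1. Some counts are given without it too. Apart from CG7409, single genes in the further chaperone lists have their differences given with it only, as do the dim Hsp70 probe sets.

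The 2 small heat shock genes with their own probe sets stood lower on both G418 arrays than on both unchallenged arrays. Hsp26, a cytosolic member, was at 10.86 and 12.19 on unchallenged replicates 1 and 2, at 9.84 and 10.37 on G418 replicates 1 and 2, and at 11.11 without and 10.37 with past exposure in F3. Unchallenged replicate 2 was the highest array and G418 replicate 1 the lowest, and the groups did not overlap. Its group means were 11.53 ± 0.94 unchallenged and 10.11 ± 0.38 with G418 (SD, n = 2 arrays each), a log2 difference of -1.42 ± 0.51 (SE) or 2.68-fold lower. Without unchallenged replicate 2 the log2 difference was -0.76, or 1.69-fold lower. Over all 18769 probe sets the limma unadjusted p was 0.0474 and the adjusted p was 0.788, so Hsp26 did not pass the test.

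Hsp27, a nuclear member of the same family, followed Hsp26 from array to array. It was at 11.71 and 13.03 on the unchallenged arrays, 10.94 and 11.49 on the G418 arrays, and 12.06 without and 11.57 with past exposure. The order of the first 4 arrays was the same as for Hsp26, again without overlap between groups. The log2 difference between G418 and unchallenged was -1.16 ± 0.51 (SE), 2.23-fold lower, with a 95% interval of -2.55 to 0.24 and an adjusted p of 0.788 in limma. Without unchallenged replicate 2 it was -0.49, or 1.41-fold lower. The 2 unchallenged arrays themselves differed by 1.33 for both genes, close in size to the group differences. In every one of the 4 pairings of a G418 with an unchallenged array, the log2 difference of Hsp26 minus that of Hsp27 lay between -0.275 and -0.26.

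**Figure D1:**
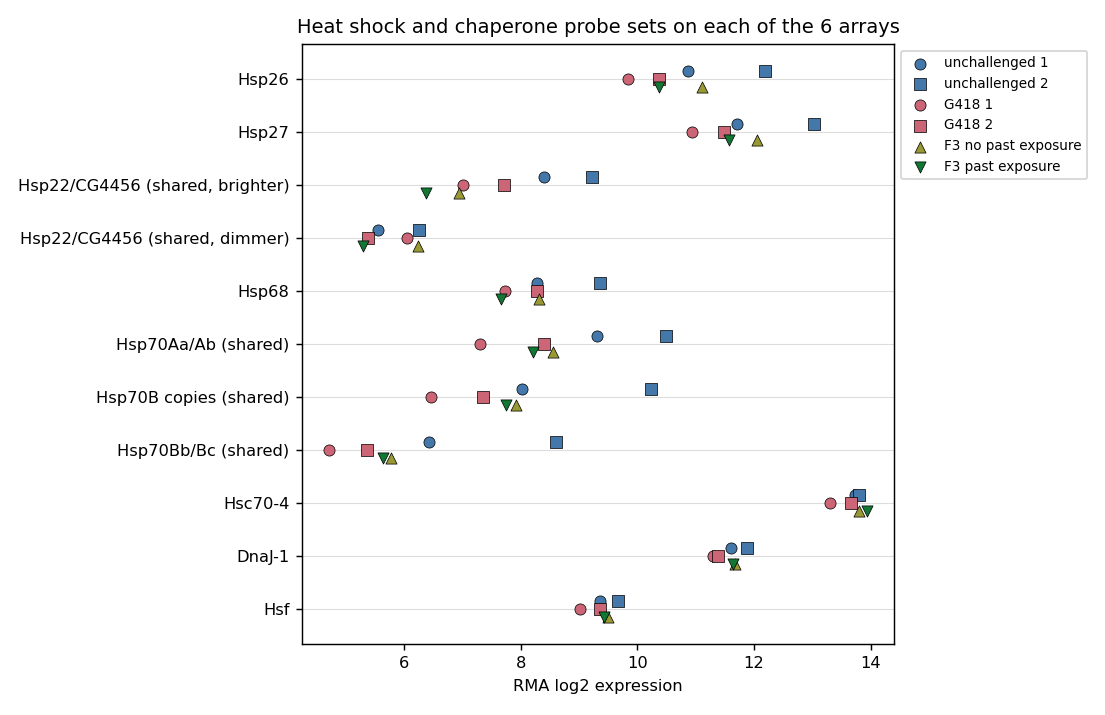
RMA log2 expression (horizontal axis) of 11 heat shock and chaperone probe sets on each of the 6 arrays, with 1 point an array and no averaging. The small heat shock and stress-induced Hsp70 probe sets spread over 1.69 to 3.89 log2 units with unchallenged replicate 2 on the right, except for the dimmer Hsp22/CG4456 probe set at 0.96, whereas Hsc70-4, DnaJ-1 and Hsf span 0.59 to 0.65.

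Hsp22, a small heat shock protein of mitochondria, shares both of its probe sets with CG4456, its neighbour, another gene of the same cluster. The brighter probe set was at 8.41 and 9.21 on the unchallenged arrays and 7.003 and 7.70 on the G418 arrays, with no overlap. It differed by -1.46 ± 0.39 (SE) on the log2 scale, with an unadjusted p of 0.0189 and an adjusted p of 0.788 in limma, and by -1.05 without unchallenged replicate 2. On the F3 arrays it was at 6.95 without and 6.37 with past exposure, below all 4 other arrays. Hsp26 and Hsp27, by contrast, stood within the range of those 4 arrays in both F3 samples. The dimmer probe set of the same pair disagreed: it was at 5.55 and 6.25 unchallenged and at 6.05 and 5.39 with G418, a log2 difference of -0.18 ± 0.36 (SE) with overlapping groups, and of 0.17 without unchallenged replicate 2.

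The small heat shock cluster on chromosome arm 3L holds, in the RefSeq gene order, Hsp67Bc, CG4456, Hsp22, CG4461, Hsp26, Hsp67Ba, an antisense RNA gene, Hsp23 and Hsp27. CG4461, another small heat shock gene, lies between Hsp22 and Hsp26. It stayed between 4.89 and 5.29 on all 6 arrays, with a G418 log2 difference of 0.05 ± 0.19 (SE). It thus showed no separation of the groups, but it lay near the array medians of 4.92 to 5.03. At that level the values may not show a decrease, so CG4461 cannot be contrasted with its brighter neighbours.

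Among Hsp70 relatives, the stress-induced gene differed more between the groups than the constitutive gene with all 4 arrays. Without unchallenged replicate 2 their log2 differences were close, at -0.27 and -0.24. Hsp68, which is induced by heat, was at 8.27 and 9.35 on the unchallenged arrays and 7.73 and 8.28 on the G418 arrays. G418 replicate 2 and unchallenged replicate 1 differed by only 0.0083, so the groups overlapped. The log2 difference was -0.81 ± 0.44 (SE), 1.75-fold lower, with an adjusted p of 0.788 in limma, and -0.27 without unchallenged replicate 2. Hsc70-4, the abundant cytosolic cognate that also uncoats clathrin vesicles, was at 13.72 and 13.81 unchallenged and 13.30 and 13.67 with G418. Its groups did not overlap, but the log2 difference was -0.28 ± 0.19 (SE) with a 95% interval of -0.79 to 0.22, and -0.24 without unchallenged replicate 2.

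The Hsp70 copies induced by heat are near-identical in sequence and were read only through shared probe sets, which cannot assign signal to a copy. The probe set annotated to Hsp70Aa and Hsp70Ab was at 9.30 and 10.50 on the unchallenged arrays, 7.31 and 8.39 on the G418 arrays, and 8.56 without and 8.20 with past exposure in F3. Both G418 arrays lay below both unchallenged arrays, and the log2 difference was -2.05 ± 0.57 (SE), 4.13-fold lower. The brighter probe set of the 4 Hsp70B copies was at 8.01 and 10.23 unchallenged, at 6.45 and 7.35 with G418, and at 7.92 and 7.74 in F3. A further probe set, annotated to Hsp70Bb and Hsp70Bc, was at 6.43 and 8.60 unchallenged, at 4.71 and 5.37 with G418, and at 5.78 and 5.64 in F3.

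None of these 3 probe sets overlapped between the groups. Both G418 arrays lay below both unchallenged arrays for 16.4% of all probe sets. Among probe sets whose mean level reached the median this share was 25.2%. As the copies are near-identical, the 3 probe sets may not be independent readings. Their differences exceeded those of the small heat shock genes in size. Their log2 differences were -2.05, -2.22 and -2.48, with unadjusted p-values of 0.0217, 0.0541 and 0.0336 and an adjusted p of 0.788 each in limma. The unchallenged arrays themselves differed by 1.20, 2.22 and 2.18 at these probe sets, and without replicate 2 the log2 differences were -1.45, -1.11 and -1.39. The other 2 Hsp70B probe sets lay between 3.08 and 3.72, at or below the lower quartile of the arrays, which was 3.72 to 3.90. They carried differences of -0.25 and 0.15.

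**Figure D2:**
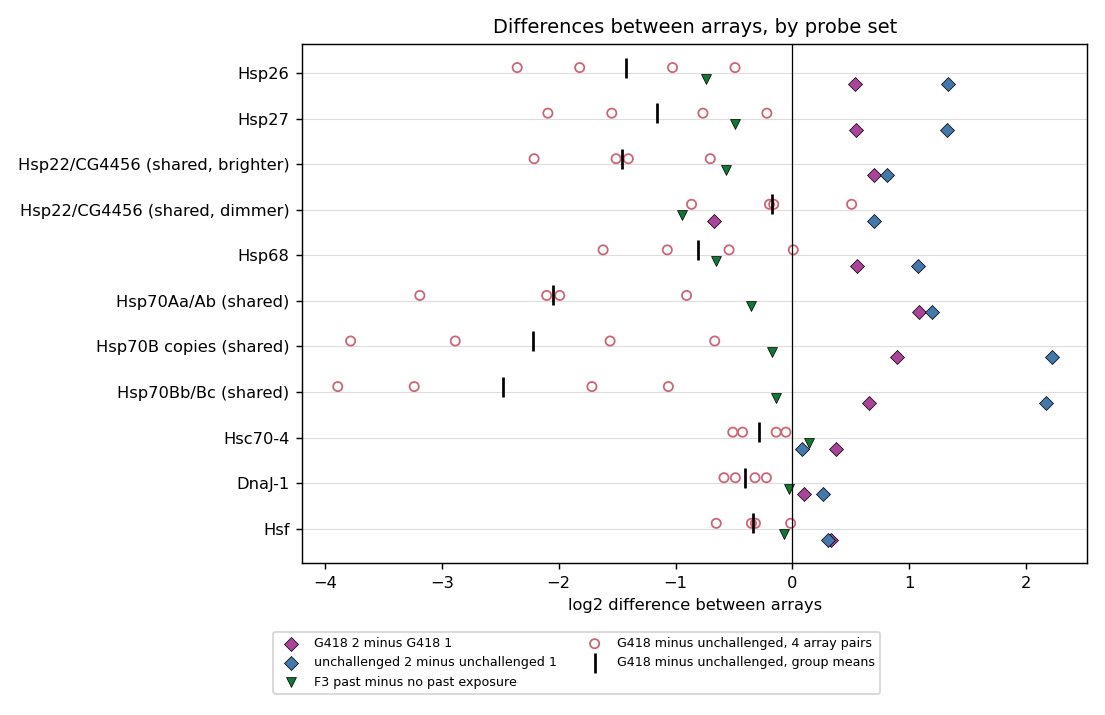
Log2 differences between arrays (horizontal axis) for the same 11 probe sets: open circles are the 4 pairings of a G418 with an unchallenged array, vertical ticks the difference of group means, diamonds the differences between replicates and triangles the F3 pair. For Hsp26 the 4 pairings run from -2.36 to -0.49, and for Hsc70-4 from -0.51 to -0.05.

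DnaJ-1, the J-domain partner of Hsp70 that is also induced by heat, showed small spreads. It was at 11.61 and 11.88 on the unchallenged arrays, 11.29 and 11.39 on the G418 arrays, and, in F3, 11.67 without and 11.65 with past exposure. The groups did not overlap, and the log2 difference of -0.40 ± 0.16 (SE) was 1.32-fold, with an unadjusted p of 0.0663 in limma, and -0.27 without unchallenged replicate 2. Hsf was at 9.37 and 9.67 unchallenged, at 9.02 and 9.35 with G418, and at 9.50 and 9.43 in F3. Its log2 difference was -0.33 ± 0.20 (SE), and G418 replicate 2 minus unchallenged replicate 1 was only -0.0145. The log2 difference of Hsf was -0.18 without unchallenged replicate 2. Array values measure RNA, whereas Hsf is known to be controlled largely through its protein.

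Counted together, all 6 genes had a lower mean with G418, as did 45.8% of all probe sets and 62.3% of the brighter ones, meaning those whose mean over the 6 arrays reached the median. For 5 of the 6, Hsp68 being the exception, both G418 arrays lay below both unchallenged arrays, against 16.4% of all probe sets and 25.2% of the brighter ones. Both G418 arrays lay below unchallenged replicate 1 alone for the same 5 genes, against 29.8% of all probe sets and 36.8% of the brighter ones. None of the 6 passed the test, as limma called 0.00% of probe sets. At an unadjusted p under 0.05 there was 1 of 6, Hsp26, against 3.54% of all probe sets and 5.73% of the brighter ones. Hsp26 and Hsp27 were each at least 2-fold lower, as were 2.42% of all probe sets and 3.02% of the brighter ones. Without unchallenged replicate 2 none of the 6 was 2-fold lower, against 0.799% of all probe sets. By size, 0.916% of probe sets had a G418 log2 difference at or below that of Hsp26, 1.63% at or below that of Hsp27 and 3.87% at or below that of Hsp68. For Hsc70-4 this share was 17.9%. Without unchallenged replicate 2 these shares were 1.54% for Hsp26, 4.28% for Hsp27, 13.3% for Hsp68 and 15.2% for Hsc70-4. These bulk arrays cannot tell fewer cells of a type from less RNA per cell.

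**Figure D3:**
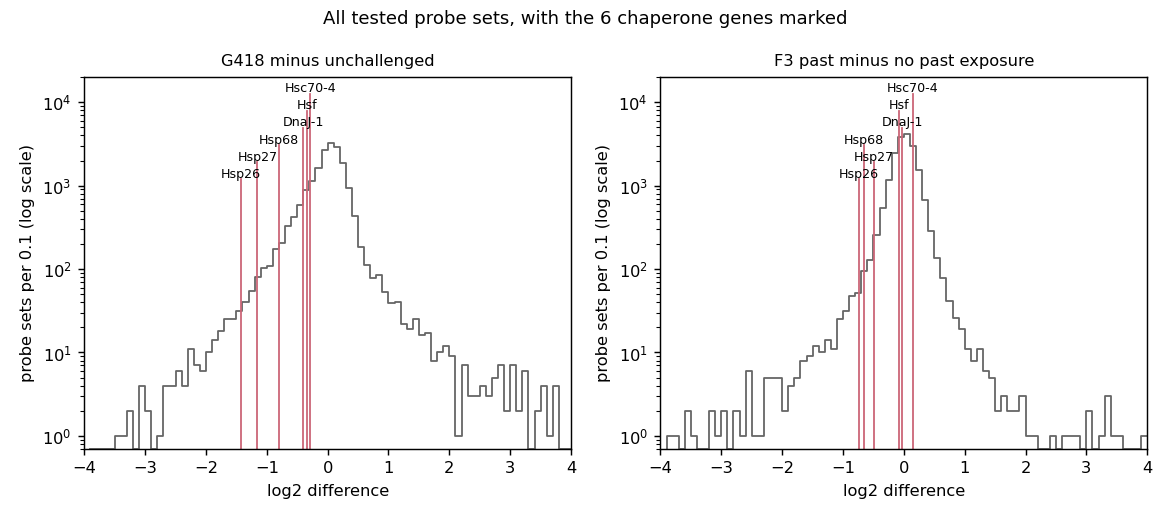
Number of probe sets per 0.1 log2 unit (log scale) against the log2 difference, from -4 to 4, for G418 minus unchallenged and for F3 with minus without past exposure, over all 18769 tested probe sets. Vertical lines mark the 6 genes: Hsp26, Hsp27 and Hsp68 lie toward the left in both panels, and Hsc70-4 lies at -0.28 on the left panel and at 0.14 on the right.

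The class comparison used the difference between 2 genes' changes, array by array, for 6 pairs of genes. The G418 log2 difference of Hsp26 minus that of Hsc70-4 was -1.14 in group means, and between -1.85 and -0.44 over the 4 pairings of arrays. For Hsp27 minus Hsc70-4 the gap was -0.87, from -1.58 to -0.16. Against Hsp68 the gap was -0.62 for Hsp26, from -0.75 to -0.48, and -0.35 for Hsp27, from -0.48 to -0.22. Hsp68 minus Hsc70-4 was -0.52 with a range that crossed 0, from -1.11 to 0.06. Hsc70-4 lay between 13.30 and 13.94 on all arrays, and the lowest array maximum was 14.9. Whether the differences of so bright a probe set are compressed was not tested, so its gaps may partly reflect its level. The exact two-sided permutation p was 0.333 for all pairs except Hsp68 with Hsc70-4, where it was 0.667. The Benjamini-Hochberg adjusted values were 0.4 and 0.667. With 2 arrays a group 0.333 is the smallest p this test can give, so none of these gaps could pass a threshold of 0.05.

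As a class, Hsp26 and Hsp27 had a median G418 log2 difference of -1.29, and Hsp68 and Hsc70-4 of -0.54, beside 0.02 over all probe sets and -0.09 over the brighter ones. Without unchallenged replicate 2 the medians were -0.62 and -0.25, and without unchallenged replicate 1 they were -1.95 and -0.83. Without G418 replicate 1 they were -1.02 and -0.31. The order of the classes depended on which probe sets stood for Hsp70: with the 3 brighter shared Hsp70 probe sets added, a choice made after seeing the data, the Hsp70 median was -2.05, below that of the small heat shock genes. For Hsp26 alone the log2 difference was -2.09 when unchallenged replicate 1 was left out, and its adjusted p in limma ran from 0.0897 to 1 over the 4 fits with 1 array left out. The mildest pairing, G418 replicate 2 with unchallenged replicate 1, gave -0.49 for Hsp26, -0.22 for Hsp27 and DnaJ-1, -0.05 for Hsc70-4, -0.0145 for Hsf and 0.0083 for Hsp68. At the shared probe sets this pairing gave -0.70 for the brighter Hsp22/CG4456 probe set, -0.91 for Hsp70Aa and Hsp70Ab, and -0.66 and -1.06 for the Hsp70B probe sets.

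With all 4 arrays, other chaperone genes all differed by less than Hsp26, Hsp27 and Hsp68, though some by more than Hsc70-4, DnaJ-1 or Hsf. Without unchallenged replicate 2 this order did not hold for CG7409, described below. Of 35 measured genes in 4 further lists, 30 had a lower and 5 a higher mean with G418, with a median log2 difference of -0.14. The mean was lower in 45.8% of all probe sets and in 62.3% of the brighter ones, whose median difference was -0.09. The split was 21 lower and 14 higher without unchallenged replicate 2, with a median of -0.02. None was 2-fold apart, and limma called 0 of 35, with 1 at an unadjusted p under 0.05, against 3.54% of all probe sets. Both G418 arrays lay below both unchallenged arrays for 5 of the 35, against 16.4% of all probe sets and 25.2% of the brighter ones. They lay above them for 1 of the 35, against 21.3% of all probe sets.

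The gene above was CG7409, another small heat shock family gene, and its difference had the opposite sign to those of Hsp26 and Hsp27. It was at 6.38 and 6.16 on the unchallenged arrays and 7.27 and 6.84 on the G418 arrays. Its log2 difference was 0.78 ± 0.21 (SE), with an unadjusted p of 0.0194 and an adjusted p of 0.788 in limma. On the F3 arrays it was at 6.69 without and 7.28 with past exposure. Without unchallenged replicate 2, G418 replicates 1 and 2 minus unchallenged replicate 1 gave 0.89 and 0.46 for CG7409. The log2 difference was then -0.76 for Hsp26, -0.49 for Hsp27 and -0.27 for Hsp68. Among the other small heat shock genes, the bright alpha-crystallin relative l(2)efl stayed between 12.83 and 13.25 on all 6 arrays. Its G418 log2 difference was -0.11 and its F3 difference 0.13.

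Of the 5 Hsp70 cognates and Hsp110, all had a lower mean with G418 and the median was -0.21. Hsp110, a nucleotide exchange factor for Hsp70, was at -0.29 ± 0.18 (SE) and Hsc70-3, the Hsp70 of the endoplasmic reticulum, at -0.22 ± 0.20 on the log2 difference scale. Hsc70-1 and Hsc70-2 lay at or below 4.20 on all arrays, so their place in this count says little. Their G418 log2 differences were -0.02 and -0.01, and their F3 differences -0.10 and -0.16. Further Hsc70-1 probe sets had G418 differences of -0.14 and 0.14. Of 15 co-chaperones 13 had a lower mean, with a median of -0.13. Stip1, which links Hsp70 to Hsp90, was at -0.41 ± 0.23 (SE), from 11.25 and 11.62 to 10.82 and 11.23, and the Hsp90 partner p23 was at -0.37 ± 0.24. Of 11 chaperonin genes 10 had a lower mean, with a median of -0.19 and no gene whose groups were apart in either direction. Beside these counts, 45.8% of all probe sets and 62.3% of the brighter ones had a lower mean. The counts use both unchallenged arrays. Against unchallenged replicate 1 alone, the medians for G418 replicates 1 and 2 were -0.10 and 0.22 for chaperonins. They were -0.16 and 0.06 for co-chaperones, and -0.10 and -0.05 for the cognates and Hsp110. The actin and tubulin folding subunit CCT7 was at -0.26 ± 0.23 and the mitochondrial co-chaperonin gene CG11267 at -0.21 ± 0.19.

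**Figure D4:**
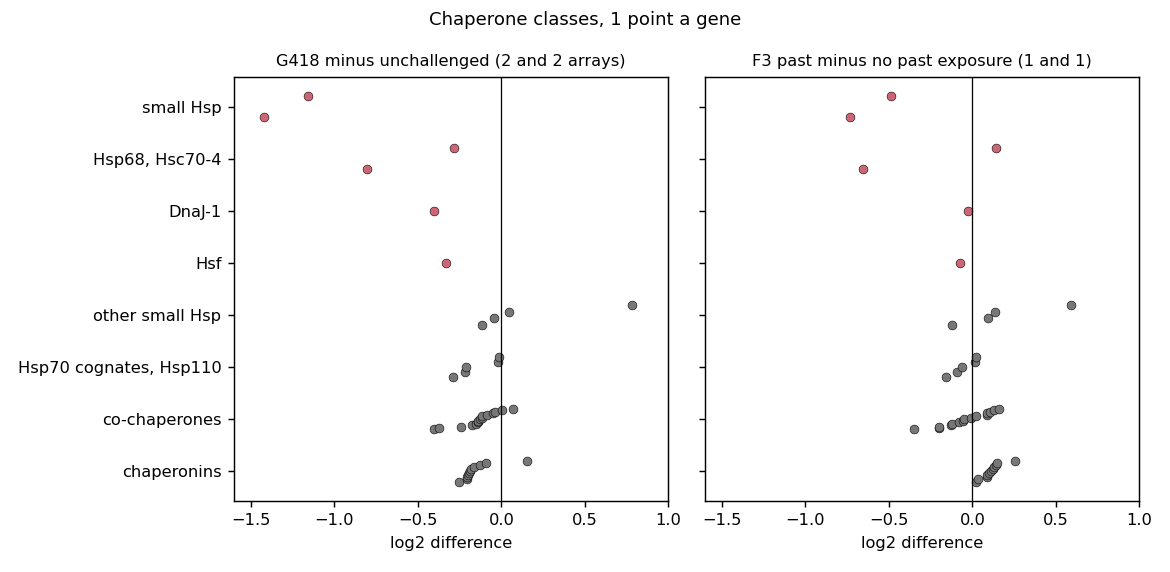
Log2 difference (horizontal axis) of each measured gene by chaperone class, 1 point a gene, for G418 minus unchallenged on the left and F3 with minus without past exposure on the right. Hsp26, Hsp27 and Hsp68 lie furthest left in both panels, and the point furthest right in both is CG7409, at 0.78 and 0.59.

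The F3 pair asked whether larvae whose F1 ancestors were exposed differ from larvae without that history, with 1 array each. The differences have no replicate check, and no test was run on them. Hsp26 was 0.74 lower on the log2 scale with past exposure, Hsp68 0.65 lower and Hsp27 0.49 lower. The difference for Hsc70-4 was 0.14, and those for DnaJ-1 and Hsf were -0.03 and -0.08. Thus 5 of the 6 genes were lower, against 46.9% of all probe sets, and none differed by 2-fold, against 0.805% of probe sets at least 2-fold lower and 0.373% at least 2-fold higher.

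The F3 differences were set beside those between replicate arrays of the other groups. For Hsp26 the 2 unchallenged arrays differed by 1.33 and the 2 G418 arrays by 0.53, beside 0.74 for the F3 pair. For Hsp27 these values were 1.33, 0.55 and 0.49, and for Hsp68 1.08, 0.55 and 0.65. The F3 difference thus lay below the unchallenged replicate difference for all 3 genes, and below the G418 replicate difference only for Hsp27. The 2 shared Hsp22/CG4456 probe sets were 0.57 and 0.94 lower with past exposure. The 3 brighter Hsp70 probe sets were 0.35, 0.17 and 0.14 lower, so here the Hsp70 copies, which had the greatest G418 differences of the heat shock probe sets, differed less than Hsp68. The median F3 difference was -0.61 for Hsp26 and Hsp27 and -0.26 for Hsp68 and Hsc70-4, beside 0.01 over all probe sets.

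Among the other chaperones in F3, all 11 chaperonins were higher with past exposure, from 0.02 for CCT1 to 0.25 for CCT3, with CCT6 at 0.15. The co-chaperone stv, a BAG-domain gene, was 0.35 lower and Cdc37, which brings kinases to Hsp90, was 0.20 lower. Over the 35 genes 22 were higher and 13 lower, with a median of 0.03, and none differed by 2-fold. For comparison, 46.9% of all probe sets and 45.8% of the brighter ones were lower with past exposure. Beside this pair, all 5 measured fat body markers were higher with past exposure, by 3.34 to 4.51 on the log2 scale, all 7 haemocyte markers by 0.07 to 1.93 and all 6 muscle markers by 0.32 to 1.44. The 6 midgut markers had differences from -2.19 for cad to -0.09 for pdm2. Their part in the chaperone values was not tested.

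Markers of other tissues and of stage also differed among the first 4 arrays, in directions that varied between and within lists. Unchallenged replicate 2 lay above replicate 1 for all 6 chaperone genes, against 46.4% of all probe sets and 58.9% of the brighter ones. It was the highest of the 6 arrays for 5 of the 6 chaperone genes, against 22.8% of all probe sets and 35.2% of the brighter ones. This array was also the highest for 7 of 10 measured nervous tissue markers, whose median level was 7.11 there and no higher than 5.204 on the other arrays, and for 8 of 13 ecdysone response genes. Among the latter, ImpE2 was at 11.86 on this array and at or below 5.81 on the others, and ImpE1 at 10.11 and at or below 5.06. ImpE3, which differed less between arrays, was at 9.26 there and between 6.12 and 7.92 elsewhere. The nervous tissue marker para and the ecdysone response genes EcR and ftz-f1 were instead lowest on this array. For ftz-f1 the values were 4.73 and 4.66 unchallenged and 5.49 and 5.99 with G418. Unchallenged replicate 2 was the highest array for none of the salivary gland, fat body, haemocyte, muscle or midgut markers. All 9 salivary gland markers had a higher mean with G418, by a median of 3.08 on the log2 scale. The median of G418 replicate 2 minus unchallenged replicate 2 was 0.47. For 6 of the 9 both G418 arrays lay above both unchallenged arrays, against 21.3% of all probe sets and 14.3% of the brighter ones. Among these 6 the largest difference was that of Sgs4, at 7.34 and 10.79 unchallenged and 13.94 and 12.71 with G418. The other 3, ng1, ng2 and ng3, were highest on G418 replicate 1, with G418 replicate 2 below unchallenged replicate 1.

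G418 replicate 1, the lowest array for 5 of the 6 chaperone genes, was also the lowest for 6 of 7 foregut markers and for 6 of 13 ecdysone response genes. The share of all probe sets lowest on this array was not counted, so these counts have no background beside them. Its upper quartile was the lowest of the arrays, at 7.78 against up to 8.10. Over the brighter probe sets, the median of this array minus unchallenged replicates 1 and 2 was -0.13 and -0.22. The same log2 differences were -1.03 and -2.36 for Hsp26, and -0.32 and -0.59 for DnaJ-1. The part that this shift of bright probe sets has in the counts was not tested. All 7 foregut markers had a lower mean with G418, with a median log2 difference of -0.53 and hh at -0.81, and the ecdysone response genes had a median of -0.51. Fat body markers had a median of 0.38, muscle markers of 0.27, haemocyte markers of -0.57 and midgut markers of -0.02. The part that tissue makeup or stage has in the chaperone differences was not tested.

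**Figure D5:**
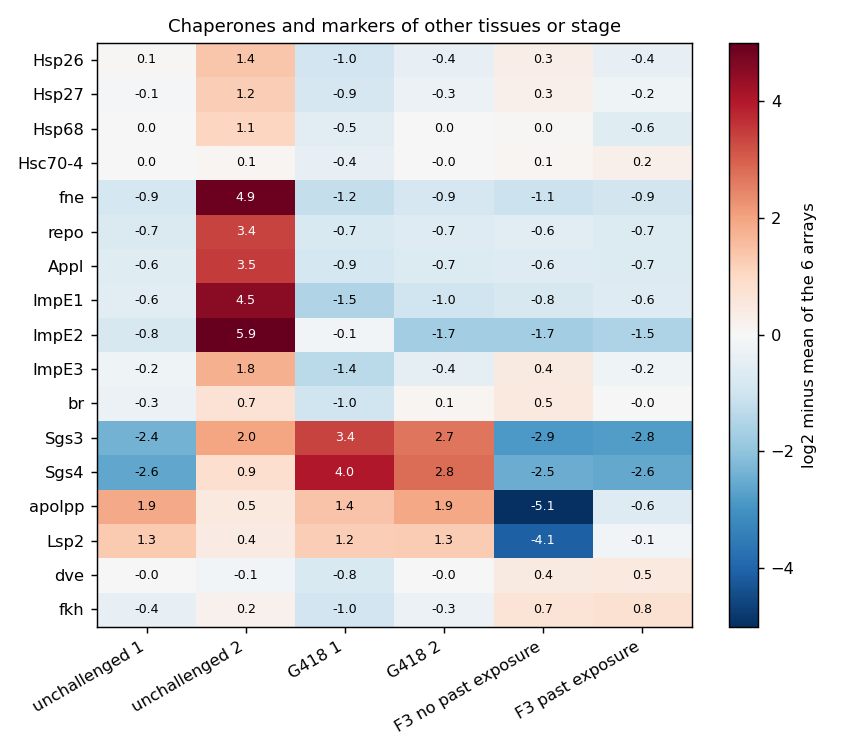
Log2 expression minus the mean of the 6 arrays for 4 chaperone genes and for markers of nervous tissue (fne, repo, Appl), ecdysone response (ImpE1, ImpE2, ImpE3, br), salivary gland (Sgs3, Sgs4), fat body (apolpp, Lsp2) and proventriculus (dve, fkh). Unchallenged replicate 2 has the highest value in the rows of Hsp26, Hsp27 and Hsp68 and of the nervous tissue and ecdysone response genes shown. The marker rows were chosen after their values were seen. In the full lists this array is the highest for 7 of 10 nervous tissue markers and 8 of 13 ecdysone response genes, and para, EcR and ftz-f1, not shown, are lowest on it.

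Across the 6 arrays, the profiles most like the mean of Hsp26 and Hsp27 were those of CG3823 (Pearson's r = 0.997), bip1 (0.994), nw (0.994), skd (0.992) and cyc (0.990), among 2031 genes at or above the median level with a range of at least 1. The 6 points of each profile include the replicates and the outlying unchallenged replicate 2. Like Hsp26, all 5 were highest on unchallenged replicate 2 and lowest on G418 replicate 1, with CG3823 at 8.58 and 5.77. On the same measure Hsp68 had r = 0.923, the shared Hsp70Aa and Hsp70Ab probe set 0.937, DnaJ-1 0.909, Hsf 0.903, the brighter Hsp22/CG4456 probe set 0.708 and Hsc70-4 0.557. Over the 5 arrays without unchallenged replicate 2, r was 0.702 for Hsp68, 0.805 for Hsp70Aa and Hsp70Ab, 0.852 for DnaJ-1, 0.895 for Hsf, 0.209 for the brighter Hsp22/CG4456 probe set and 0.718 for Hsc70-4, and between 0.966 and 0.990 for the 5 genes named above. These values are descriptions and were not tested.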

How the data were processed

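Affymetrix Drosophila 2.0 arrays were read for 6 samples, and the deposited table holds log2 values made by the authors with RMA. Per the submitters' processing notes the program was Expression Console. Its version, and whether normalization covered the 6 arrays jointly, is not given in the sources used here. Of 18952 probe sets, 183 controls were left out and 18769 tested. Through the array annotation and RefSeq symbols (Release 6), 13647 had 1 symbol, 402 several and 4720 none here. A gene stood for its brightest probe set with 1 symbol. No sequence was used.

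The members, lists and tests were chosen with earlier results of these data known. The G418 comparison used limma 3.58.1 (lmFit, eBayes) in R 4.3.3. Its p-values were adjusted by Benjamini-Hochberg across 18769 probe sets and called under 0.05, after a test on simulated data. Arrays have no depth, so their number limits the precision. Every member was named. From each further chaperone list the 2 largest differences per comparison were named, and other genes were chosen after their values were seen. Alternatives covered normalization, probe set choice, replicate block, variance prior, dim probe sets and leaving out each array.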

Additional observations from a re-analysis of the deposited data

How the results depend on the processing

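All 6 members kept the sign of their differences under every alternative run, and 0 members passed the test in any, including each fit with 1 array left out, where the lone array is assumed to vary like the other group. Over all probe sets limma called 0 as deposited, 1 with an intensity trend in the variance prior, and 0 to 251 with 1 array left out: 251 without unchallenged replicate 1 and 4 without unchallenged replicate 2. With the replicate block, limma called 0 members and 0 probe sets. Replicate deviations of the 2 groups correlated at r = 0.315 across probe sets, but with 2 pairs the numbers were not taken to pair the arrays. Of the 6 members, the number with no G418 array above an unchallenged one was 6 after a further quantile normalization and 4 after median centring. The share of probe sets meeting this rule was counted on the deposited values only, at 16.4% of all and 25.2% of the brighter ones. These 2 counts therefore have no matching background. With 1 array left out the small heat shock median ran from -1.95 to -0.62 and that of Hsp68 and Hsc70-4 from -0.83 to -0.25. Shared probe sets were added after seeing the data. With the brighter Hsp22/CG4456 probe set the small heat shock median was -1.42 for G418 and -0.57 for F3, and with both it was -1.29 and -0.65. With all 5 shared Hsp70 probe sets the median of the Hsp70 relatives was -0.81 for G418, and with only the 3 brighter ones it was -2.05, below the small heat shock median. For F3 it was -0.17 with either. The 3 missing members, 2 arrays a group and 1 array per F3 group limit every statement.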
